A study of Rattus norvegicus with 12 samples.

Results

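A set of 49 genes, among 20842 in the count table, was lower in VAMP7KO NRK cells than in both WT and ATG5KO cells. It was chosen by a rule on these same libraries. Counts were divided by the library total and scaled to 1000000 (CPM). A gene was taken when its mean WT level was at least 1 CPM, when the highest of its 4 VAMP7KO values was under 0.667 of the lowest of its 8 WT and ATG5KO values, and when its mean in ATG5KO was between 0.5 and 2 times its WT mean. Symbols of solute carriers, collagens, laminins, integrins and matrix or ADAM proteases, and Ntrk2 and Acadvl, were left out by name, which removed 1 gene, Col6a1. Of the 11442 genes with a mean WT level of at least 1 CPM, 470 (4.11%) had all 4 VAMP7KO libraries below all 8 others and 86 kept to the limit on the ratio. Among the latter, the ATG5KO mean was in the window for 50, under it for 15 and over it for 21. A symbol was known for 42 of the 49 genes, and the other 7 are known by their Ensembl identifier alone. As every comparison between genotypes entered the rule, the levels below describe the chosen genes and carry no p-value for those comparisons.

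The 3 genotypes were WT NRK cells, a rat kidney line, VAMP7KO cells with the gene of the vesicle SNARE VAMP7 disrupted, and ATG5KO cells with the gene of the autophagy protein ATG5 disrupted. Each genotype was sampled in 4 replicates, numbered 1 to 4, of untreated cells in complete growth medium. The knockout lines were made with Cas9 and a guide plasmid carrying GFP, followed by sorting of single GFP-positive cells, so that what separates a line from WT can be the lost gene or the cell it was grown from, and these cannot be told apart here. The replicates are dishes of these lines, and p-values therefore measure the spread between dishes. Poly(A) RNA was sequenced with a stranded kit, and between 21090858 and 31525111 reads per library were assigned to genes.

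VAMP7 sits on late endosomes and lysosomes and drives their fusion with target membranes, including the plasma membrane. ATG5 is part of the machinery that attaches LC3 to the growing autophagosome. The comparison with ATG5KO separates, at the level of mRNA, genes that were low in the line without VAMP7 from genes that were also low in the line without ATG5.

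Libraries of replicates 1 and 2 differed from those of replicates 3 and 4 in each genotype, and 60.2% of the 13141 genes tested differed between these sets (edgeR's quasi-likelihood test, adjusted p under 0.05). The labels name no batch, and values that turn on the set are therefore given by replicate. The labels describe the cells as epithelial, while the study uses both fibroblastic and epithelial for them. Of the markers with a known identifier, the epithelial keratin gene Krt8 had 686 to 852 CPM in WT, 439 to 557 CPM in VAMP7KO and 563 to 791 CPM in ATG5KO, and the kidney cadherin gene Cdh16 had 0.361 to 1.91 CPM in WT, 0.14 to 0.486 CPM in VAMP7KO and 0.4 to 1.89 CPM in ATG5KO. The mesenchymal transcription factor gene Twist1 had 59 to 77.2 CPM in WT, 72.2 to 141 CPM in VAMP7KO and 61.2 to 80.5 CPM in ATG5KO. The fibroblast proteoglycan gene Lum had 1.3 to 6.4 CPM in WT, 44 to 307 CPM in VAMP7KO and 15.9 to 125 CPM in ATG5KO. Dcn, of the same family, had 0 to 0.19 CPM in WT, 1.72 to 2.49 CPM in VAMP7KO and 0.664 to 0.982 CPM in ATG5KO, and the surface protein gene Thy1 0 to 0.867 CPM in WT, 0 to 0.441 CPM in VAMP7KO and 78.8 to 218 CPM in ATG5KO. Krt8, Cdh16, Twist1 and Lum were thus detected in every library, while Dcn was at 0 in at least 1 WT library and Thy1 in at least 1 WT and 1 VAMP7KO library. The VAMP7KO libraries lay below all WT libraries for Krt8, above them for Lum and Dcn, and overlapped them for Cdh16, Twist1 and Thy1.

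Vamp7 itself (ENSRNOG00000008372) was among the 49 genes. The rule required low VAMP7KO values, so its place there is no separate check of the label. The study checked both knockouts by immunoblot of the proteins. In replicates 1 to 4 Vamp7 had 116, 116, 112 and 106 CPM in WT, 51.2, 48.2, 40.3 and 40.8 CPM in VAMP7KO and 128, 129.6, 131 and 132 CPM in ATG5KO. The VAMP7KO libraries all lay below the others, and none was near 0: the mean in VAMP7KO was 40.2% of that in WT. Across the 49 genes the mean VAMP7KO level ran from 0.795% to 44.3% of WT with a median of 15.7%. In 20 genes less than 10% of the WT level was left, in 11 genes 10 to 25%, and in 18 genes, Vamp7 among them, 25% or more. All 4 VAMP7KO libraries were at the floor, taken as 3 counts or fewer, in 6 genes, some of them in 13 and none in 30. A count of 3 stood for 0.0952 to 0.142 CPM.

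**Figure D1:**
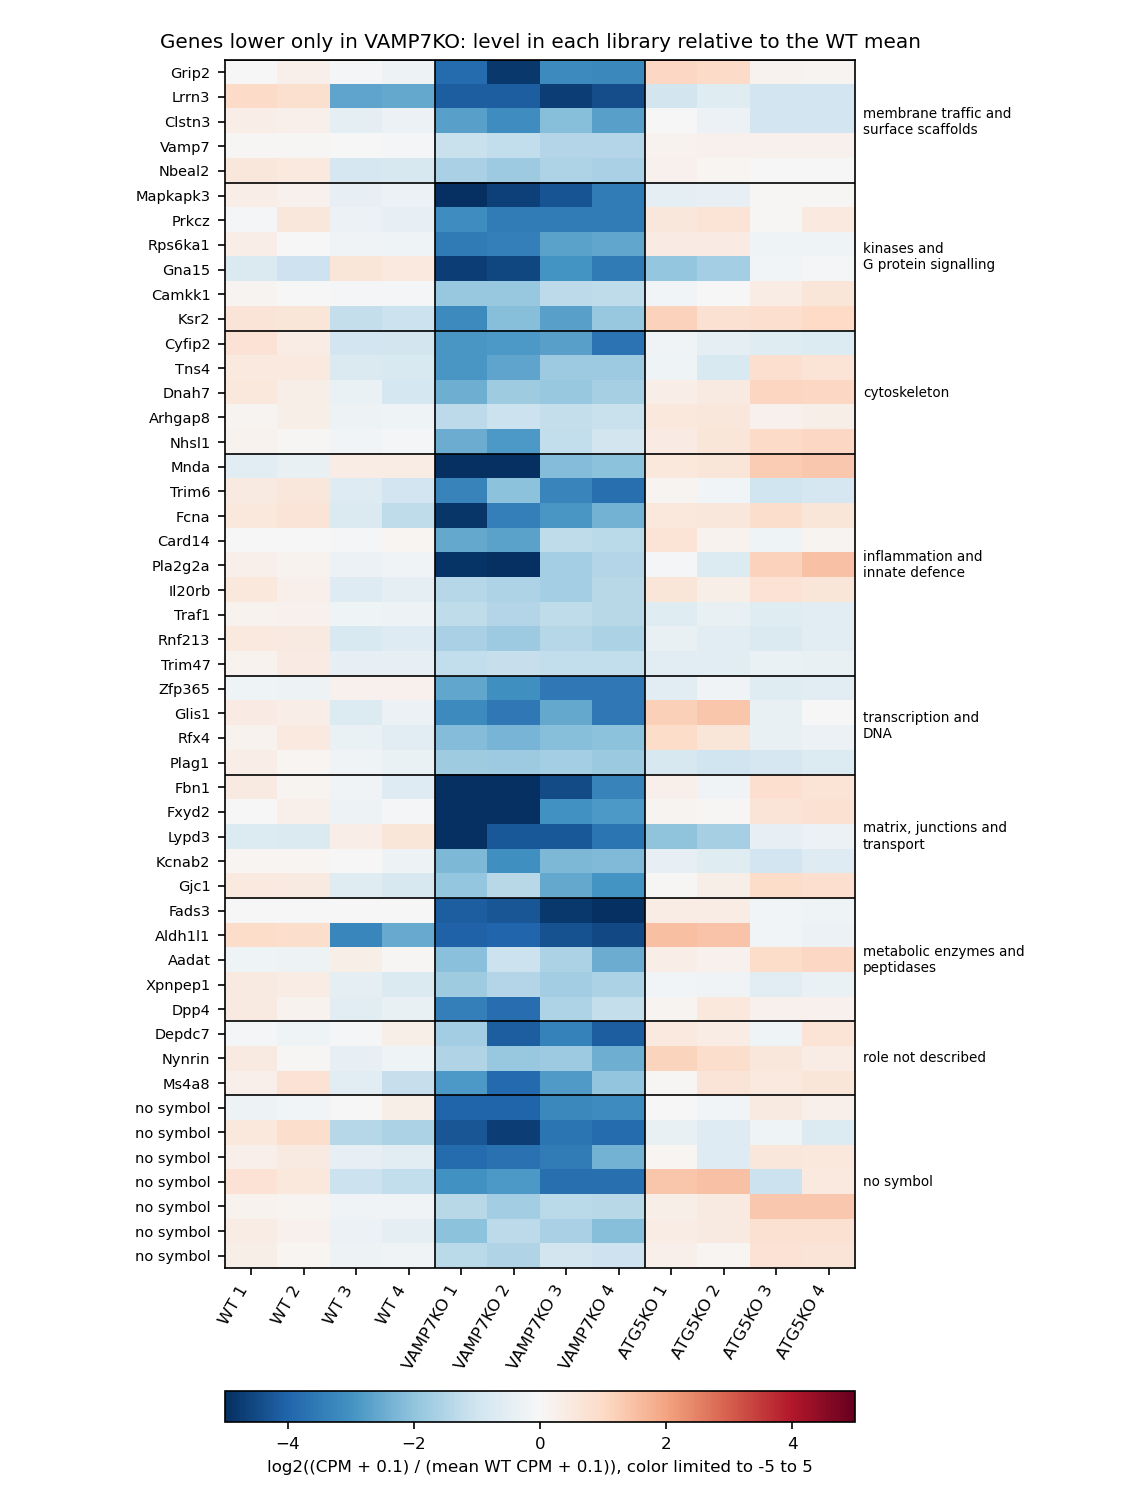
Level of each of the 49 genes (rows, grouped by role) in each of the 12 libraries (columns), as the log2 ratio of CPM to the WT mean with 0.1 CPM added to both. Blue is below and red above the WT mean, and the block of VAMP7KO columns is blue in all 49 rows, while Lrrn3 and Aldh1l1 are also blue in WT replicates 3 and 4.

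The limit on the ratio decided which genes were taken, and the order of the gaps shows how clear each gene was of it. Just inside it were Rnf213, Trim47 and Gjc1, with a ratio of the highest VAMP7KO to the lowest other value of 0.633, 0.659 and 0.661. Just outside it were Lurap1l, Ecm1 and Rap1gap at 0.692, 0.694 and 0.694. Trim47 was lost when the library sizes were scaled by TMM or by DESeq2's size factors. With a highest VAMP7KO value under 3 counts of its library set to that floor, the widest gaps among named genes belonged to Fads3, Grip2 and Mapkapk3: the lowest WT or ATG5KO value was 15.8, 10.9 and 10.4 times the highest VAMP7KO value.

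**Figure D2:**
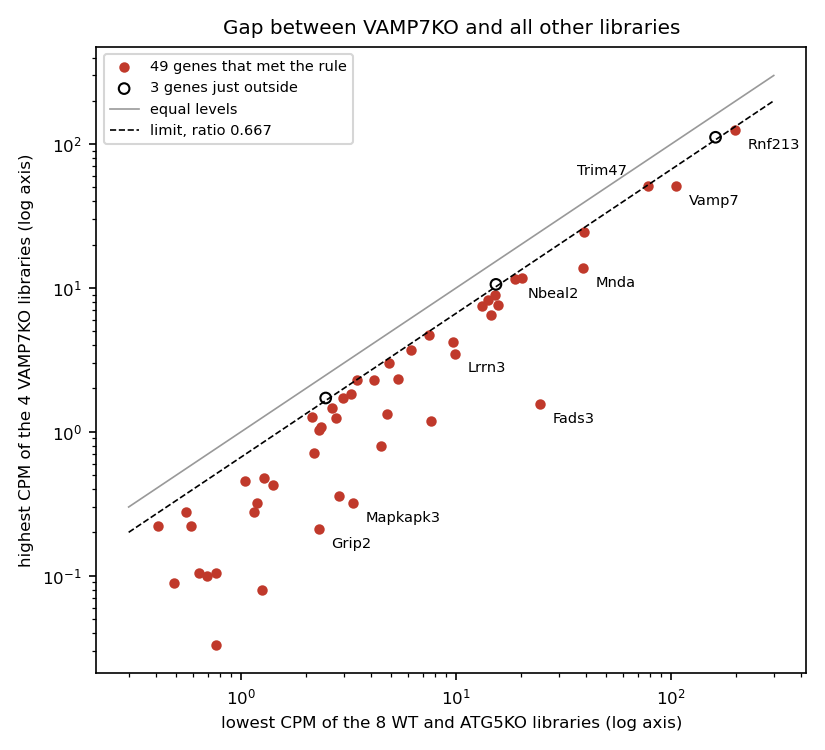
Highest CPM of the 4 VAMP7KO libraries against the lowest CPM of the 8 WT and ATG5KO libraries for the 49 genes (red) and the 3 genes just outside the limit (open circles), on log axes, with lines at equal levels and at the limit of 0.667. Fads3 and Grip2 lie far below the limit, and Rnf213 and Trim47 lie close to it.

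The promoters of the genes with the widest gaps are shown as a description. The pattern that these genes share across the 3 genotypes was required of them by the rule. The sequences are from RefSeq on GRCr8, each running from 250 bases before to 50 bases after the annotated start on the gene's own strand. A promoter was matched by symbol for 33 of the 42 named genes, and for 1 of these, Rfx4, more than 1 entry was found and none was used. Capitals mark motifs found on either strand: the GC box (GGGCGG), the CCAAT box (CCAAT), the TATA box (TATAAA), the AP-1 site (TGANTCA), the E-box (CACGTG) and the κB site (GGG, any 2 bases, then TTTCC). None of these motifs contains another. The promoter of Pla2g2a is added as it is 1 of 2, with that of Zfp365, that hold a κB match.
Fads3 promoter, chr1:216110623-216110922, plus strand: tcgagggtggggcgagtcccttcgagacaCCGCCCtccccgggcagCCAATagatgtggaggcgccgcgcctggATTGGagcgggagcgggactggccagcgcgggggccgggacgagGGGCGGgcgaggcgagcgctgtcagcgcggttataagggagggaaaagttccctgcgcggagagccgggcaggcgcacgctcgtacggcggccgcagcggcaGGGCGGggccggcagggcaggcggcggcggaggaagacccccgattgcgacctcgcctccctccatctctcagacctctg
Grip2 promoter, chr4:125878370-125878669, minus strand: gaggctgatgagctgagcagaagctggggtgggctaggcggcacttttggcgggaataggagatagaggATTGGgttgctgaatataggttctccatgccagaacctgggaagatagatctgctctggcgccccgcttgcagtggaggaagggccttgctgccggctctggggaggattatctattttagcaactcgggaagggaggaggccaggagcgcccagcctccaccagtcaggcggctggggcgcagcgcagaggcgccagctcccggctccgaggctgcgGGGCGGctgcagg
Mapkapk3 promoter, chr8:116842179-116842478, minus strand: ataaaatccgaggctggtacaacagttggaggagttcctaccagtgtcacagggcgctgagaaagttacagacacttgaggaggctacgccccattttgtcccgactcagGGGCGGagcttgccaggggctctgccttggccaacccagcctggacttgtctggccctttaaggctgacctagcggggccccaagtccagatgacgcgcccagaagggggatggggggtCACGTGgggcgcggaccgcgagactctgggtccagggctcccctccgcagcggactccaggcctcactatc
Pla2g2a promoter, chr5:156359475-156359774, plus strand: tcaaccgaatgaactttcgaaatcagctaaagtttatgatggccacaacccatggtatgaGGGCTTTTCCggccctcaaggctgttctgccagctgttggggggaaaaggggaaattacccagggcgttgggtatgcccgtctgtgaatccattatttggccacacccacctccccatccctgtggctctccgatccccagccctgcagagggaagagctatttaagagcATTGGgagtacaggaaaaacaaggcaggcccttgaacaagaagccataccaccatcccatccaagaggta
The Fads3 sequence held 3 GC boxes and 2 CCAAT boxes, that of Grip2 1 of each, that of Mapkapk3 1 GC box and 1 E-box, and that of Pla2g2a 1 CCAAT box beside the κB match. Over the 32 promoters, a GC box was found in 18 (56.2%, against 41.8% of 21851 promoters of protein-coding genes), a CCAAT box in 17 (53.1% against 38%) and a TATA box in 1, that of Fcna (3.12% against 13%). An AP-1 site was found in 1, that of Traf1 (3.12% against 6.53%), an E-box in 2 (6.25% against 7.02%) and a κB match in 2 (6.25% against 1.51%). The median promoter of the set held 15.5 CG dinucleotides, against 11 over all promoters, and had a GC content of 63.3%, against 55%. These counts describe letters in a window, and no test was made of them.

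Among genes of membrane traffic and surface scaffolds, 4 stood beside Vamp7. Grip2 encodes a PDZ-domain scaffold that binds glutamate receptors, and its level in replicates 1 to 4 was 2.76, 3.29, 2.57 and 2.29 CPM in WT, 0.099, 0, 0.21 and 0.199 CPM in VAMP7KO and 5.64, 5.45, 3.06 and 3.04 CPM in ATG5KO. Nbeal2 encodes a BEACH-domain protein needed for platelet granules, with 49.6, 47.6, 18.7 and 19.5 CPM in WT, 10.9, 9.67, 11.5 and 11.1 CPM in VAMP7KO and 39.1, 36.1, 34 and 33.1 CPM in ATG5KO. Clstn3 encodes a calsyntenin, a transmembrane cadherin, and ranged over 7.39 to 13.4 CPM in WT, 1.15 to 2.31 CPM in VAMP7KO and 5.38 to 10.8 CPM in ATG5KO. Grip2 was nearly absent in VAMP7KO (4.66% of WT), while 15.5% of Clstn3 and 31.8% of Nbeal2 remained. Lrrn3, a leucine-rich-repeat transmembrane protein of neurons, had 120.2, 106, 9.93 and 10.5 CPM in WT, 3.5, 3.44, 2.24 and 2.75 CPM in VAMP7KO and 32.5, 40.7, 32.1 and 31.7 CPM in ATG5KO. Its WT level was much lower in replicates 3 and 4 than in 1 and 2, and the VAMP7KO libraries were nonetheless below each of them.

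Kinases and G protein signalling gave 6 genes, with 0.795% to 33.4% of the WT level left. Mapkapk3, a kinase activated by stress-responsive MAP kinases, had 5.84, 5.46, 3.46 and 3.79 CPM in WT, 0.033, 0.0883, 0.14 and 0.319 CPM in VAMP7KO and 3.32, 3.46, 4.84 and 4.81 CPM in ATG5KO. Rps6ka1, a ribosomal S6 kinase downstream of ERK, had 6.63, 5.35, 4.63 and 4.48 CPM in WT, 0.363, 0.397, 0.736 and 0.796 CPM in VAMP7KO and 6.97, 7.09, 4.58 and 4.53 CPM in ATG5KO. Both were low in every VAMP7KO library, and WT and ATG5KO overlapped. Prkcz, the atypical protein kinase C of the cell polarity complex, had 1 count in the 4 VAMP7KO libraries together, against means of 1.04 ± 0.379 CPM in WT and 1.47 ± 0.277 CPM in ATG5KO (SD, n = 4). Set against the mean floor of 3 counts per library, the mean of Prkcz was at least 9.09-fold higher in WT and at least 12.9-fold higher in ATG5KO. Camkk1, an activator of calmodulin-dependent kinases, ranged over 14.7 to 17.6 CPM in WT, 4.16 to 6.45 CPM in VAMP7KO and 14.5 to 24.1 CPM in ATG5KO. Ksr2, a scaffold of the RAF to ERK cascade, ranged over 2.13 to 7.92 CPM in WT, 0.462 to 1.27 CPM in VAMP7KO and 8.59 to 11 CPM in ATG5KO. These 2 kept 33.4% and 17.4% of WT. Gna15, an alpha subunit of the Gq family, ranged over 2.02 to 6.6 CPM in WT, 0.066 to 0.456 CPM in VAMP7KO and 1.04 to 3.97 CPM in ATG5KO, and was higher in replicates 3 and 4 than in 1 and 2 in each genotype.

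The cytoskeletal genes kept 11.6% to 44.3% of WT. Cyfip2, a subunit of the WAVE complex that drives branched actin, had 15.5, 12.1, 4.76 and 4.9 CPM in WT, 1.15, 1.19, 1.33 and 0.637 CPM in VAMP7KO and 8.3, 6.88, 6.04 and 5.79 CPM in ATG5KO. Nhsl1, a protein of the Nance-Horan family that binds the WAVE complex, had 25.4, 23.4, 20.2 and 20.7 CPM in WT, 3.96, 3.0, 9.43 and 11.7 CPM in VAMP7KO and 30, 34.5, 44.2 and 45.8 CPM in ATG5KO. Tns4, a tensin of focal adhesions, had 37.6, 37.5, 16.1 and 15.6 CPM in WT, 3.43, 4.19, 7.43 and 7.6 CPM in VAMP7KO and 23.1, 15.8, 47.6 and 43.5 CPM in ATG5KO. In Nhsl1 and Tns4 the VAMP7KO libraries of replicates 3 and 4 were higher than those of replicates 1 and 2, whereas in Cyfip2 it was WT that differed most between the sets, with replicates 3 and 4 lower. Arhgap8, a GTPase-activating protein, ranged over 13.3 to 19.1 CPM in WT, 6.3 to 7.55 CPM in VAMP7KO and 18.1 to 23.5 CPM in ATG5KO, and Dnah7, an inner-arm dynein heavy chain of cilia, over 3.23 to 8.71 CPM in WT, 1.02 to 1.83 CPM in VAMP7KO and 7.63 to 12.8 CPM in ATG5KO.

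The role group of inflammation and innate defence held 9 genes. Roles were given after the members were known and no share over all genes was taken, so the sizes of the groups are no result. Rnf213, a very large E3 ubiquitin ligase induced by interferon, had 469.8, 452, 198 and 215 CPM in WT, 109, 94.1, 126 and 112 CPM in VAMP7KO and 260.2, 234, 204 and 224 CPM in ATG5KO. Trim47, another E3 ligase, ranged over 86.8 to 153 CPM in WT, 48.4 to 51.5 CPM in VAMP7KO and 78.1 to 91.6 CPM in ATG5KO. Both were lower in VAMP7KO by less than most other genes of the set, at 33% and 43.2% of WT, and the ATG5KO values of Rnf213 lay close to those of WT replicates 3 and 4. Pla2g2a, a secreted phospholipase that kills bacteria, had 5.77, 5.46, 3.9 and 4.24 CPM in WT, 0.066, 0.0441, 1.44 and 1.71 CPM in VAMP7KO and 4.5, 2.97, 11 and 13.6 CPM in ATG5KO. Fcna, a ficolin that recognises microbial sugars, had 8.21, 8.89, 3.36 and 2.29 CPM in WT, 0.099, 0.441, 0.666 and 1.04 CPM in VAMP7KO and 8.34, 8.49, 10.7 and 8.69 CPM in ATG5KO. Mnda, a nuclear protein of the interferon-inducible HIN family, had 39, 44.3, 74 and 73.9 CPM in WT, 1.22, 1.59, 12.9 and 13.7 CPM in VAMP7KO and 82.8, 88.6, 141 and 147 CPM in ATG5KO. In these 3 genes both VAMP7KO libraries of replicates 3 and 4 were higher than both of replicates 1 and 2. Reads of Mnda can be shared with related genes of its family, so its level is less certain.

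Traf1, Card14 and Il20rb, of NF-κB and cytokine signalling in the same group, kept more of their WT level than Trim6 did. Traf1, an adaptor of TNF receptors and a target of NF-κB, had 13.1, 13.5, 9.77 and 9.59 CPM in WT, 4.72, 4.06, 4.66 and 4.38 CPM in VAMP7KO and 7.49, 8.8, 7.49 and 7.71 CPM in ATG5KO. Card14, a scaffold that activates NF-κB in epithelia, had 2.76, 2.75, 2.7 and 2.95 CPM in WT, 0.396, 0.353, 1.09 and 1.04 CPM in VAMP7KO and 4.5, 3.14, 2.36 and 3.04 CPM in ATG5KO. The ATG5KO libraries of Traf1 all lay between VAMP7KO and WT. Il20rb, a chain of a cytokine receptor of epithelia, ranged over 15.2 to 34.4 CPM in WT, 7.18 to 8.88 CPM in VAMP7KO and 29 to 38.6 CPM in ATG5KO, and the E3 ligase gene Trim6 over 0.59 to 1.88 CPM in WT, 0 to 0.221 CPM in VAMP7KO and 0.582 to 1.38 CPM in ATG5KO. The level left in VAMP7KO was 38.8% of WT for Traf1, 25.7% for Card14, 34.7% for Il20rb and 5.79% for Trim6.

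Of the 4 genes of transcription and DNA, 2 were at the floor in each VAMP7KO library. Glis1, a zinc finger transcription factor, had 1.47, 1.41, 0.634 and 0.868 CPM in WT, 0.033, 0, 0.105 and 0 CPM in VAMP7KO and 2.61, 3.04, 0.837 and 1.12 CPM in ATG5KO, and its mean was at least 9.61-fold higher in WT. Zfp365, a zinc finger protein linked to genome stability, had 0.932, 0.903, 1.3 and 1.29 CPM in WT, 0.099, 0.0441, 0 and 0 CPM in VAMP7KO and 0.711, 0.978, 0.691 and 0.747 CPM in ATG5KO, and its mean was at least 9.7-fold higher in WT. Neither had more than 3 counts in a VAMP7KO library. Rfx4, a regulatory factor X protein of a family that controls cilia genes, ranged over 2.19 to 4.66 CPM in WT, 0.574 to 0.717 CPM in VAMP7KO and 2.47 to 6.31 CPM in ATG5KO. Plag1, a zinc finger factor that acts on growth factor genes, ranged over 9.73 to 15.6 CPM in WT, 3.38 to 3.71 CPM in VAMP7KO and 6.15 to 7.75 CPM in ATG5KO. Plag1 was also lower in every ATG5KO library than in every WT library, with an ATG5KO mean 0.562 times that of WT.

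The 5 genes of matrix, junctions and transport had a median of 6.22% of the WT level left in VAMP7KO. Fbn1, fibrillin-1 of the elastic microfibrils, had 6.13, 4.99, 3.97 and 2.85 CPM in WT, 0.033, 0, 0.105 and 0.358 CPM in VAMP7KO and 5.31, 3.95, 8.18 and 7.29 CPM in ATG5KO. Fxyd2, the gamma subunit of the kidney sodium pump, had 9.5, 11, 7.68 and 9.0 CPM in WT, 0.066, 0, 1.05 and 1.19 CPM in VAMP7KO and 10.3, 9.64, 14.5 and 15.7 CPM in ATG5KO. Lypd3, a GPI-anchored surface protein of epithelia, had 3.16, 3.11, 6.44 and 7.82 CPM in WT, 0, 0.177, 0.175 and 0.319 CPM in VAMP7KO and 1.19, 1.54, 3.78 and 4.2 CPM in ATG5KO. Fbn1 and Fxyd2 had at most 2 counts in VAMP7KO replicates 1 and 2, and Fxyd2 had up to 30 counts in replicates 3 and 4. Kcnab2, a beta subunit of voltage-gated potassium channels, ranged over 2.15 to 2.76 CPM in WT, 0.221 to 0.478 CPM in VAMP7KO and 1.27 to 1.9 CPM in ATG5KO, and Gjc1, a connexin of gap junctions, over 3.47 to 8.71 CPM in WT, 0.677 to 2.3 CPM in VAMP7KO and 6.45 to 11.8 CPM in ATG5KO.

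The metabolic enzymes and peptidases include the gene with the widest gap. Fads3, of the fatty acid desaturase family, had 28.3, 27.6, 28.7 and 28.5 CPM in WT, 1.55, 1.37, 0.911 and 0.478 CPM in VAMP7KO and 36.8, 36.2, 25.9 and 24.5 CPM in ATG5KO, a mean of 28.3 ± 0.501 CPM (SD, n = 4) in WT, 1.08 ± 0.482 CPM in VAMP7KO and 30.8 ± 6.57 CPM in ATG5KO. The ATG5KO libraries of replicates 1 and 2 lay above and those of replicates 3 and 4 below all WT libraries. The fitted log2 fold change of Fads3 against WT was -4.7 (standard error 0.238), and 12 to 47 reads were counted in each VAMP7KO library. Aldh1l1, the folate enzyme formyltetrahydrofolate dehydrogenase, had 9.32, 9.0, 0.412 and 0.764 CPM in WT, 0.198, 0.221, 0.14 and 0.119 CPM in VAMP7KO and 13.8, 13.2, 4.47 and 3.92 CPM in ATG5KO. WT replicates 3 and 4 of Aldh1l1 lay closer to VAMP7KO than to WT replicates 1 and 2. Dpp4, a dipeptidyl peptidase of the kidney brush border, had 9.65, 7.95, 4.85 and 5.35 CPM in WT, 0.561, 0.397, 2.31 and 2.99 CPM in VAMP7KO and 7.59, 10.2, 8.0 and 8.13 CPM in ATG5KO. Xpnpep1, an aminopeptidase that cleaves before proline, ranged over 14.1 to 32.2 CPM in WT, 6.73 to 8.3 CPM in VAMP7KO and 16.3 to 21.3 CPM in ATG5KO, and Aadat, an aminotransferase of lysine and kynurenine breakdown, over 2.64 to 3.93 CPM in WT, 0.478 to 1.46 CPM in VAMP7KO and 3.7 to 6.54 CPM in ATG5KO.

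Another 3 named genes are given by level alone. Depdc7 ranged over 1.41 to 2.01 CPM in WT, 0 to 0.429 CPM in VAMP7KO and 1.42 to 2.71 CPM in ATG5KO. Nynrin ranged over 2.76 to 5.13 CPM in WT, 0.597 to 1.25 CPM in VAMP7KO and 4.9 to 8.2 CPM in ATG5KO. Ms4a8 ranged over 0.556 to 2.35 CPM in WT, 0 to 0.279 CPM in VAMP7KO and 1.42 to 2.2 CPM in ATG5KO. Depdc7 and Ms4a8 had no count in at least 1 VAMP7KO library, and Nynrin was counted in all 4. Of the 7 genes without a symbol, ENSRNOG00000063586 had the widest gap, with 1.25, 1.34, 1.52 and 1.88 CPM in WT, 0, 0, 0.0701 and 0.0796 CPM in VAMP7KO and 1.52, 1.36, 2.07 and 1.82 CPM in ATG5KO. These 7 genes had 2.18% to 44.1% of the WT level in VAMP7KO, and 3 of them were at the floor in all 4 VAMP7KO libraries.

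**Figure D3:**
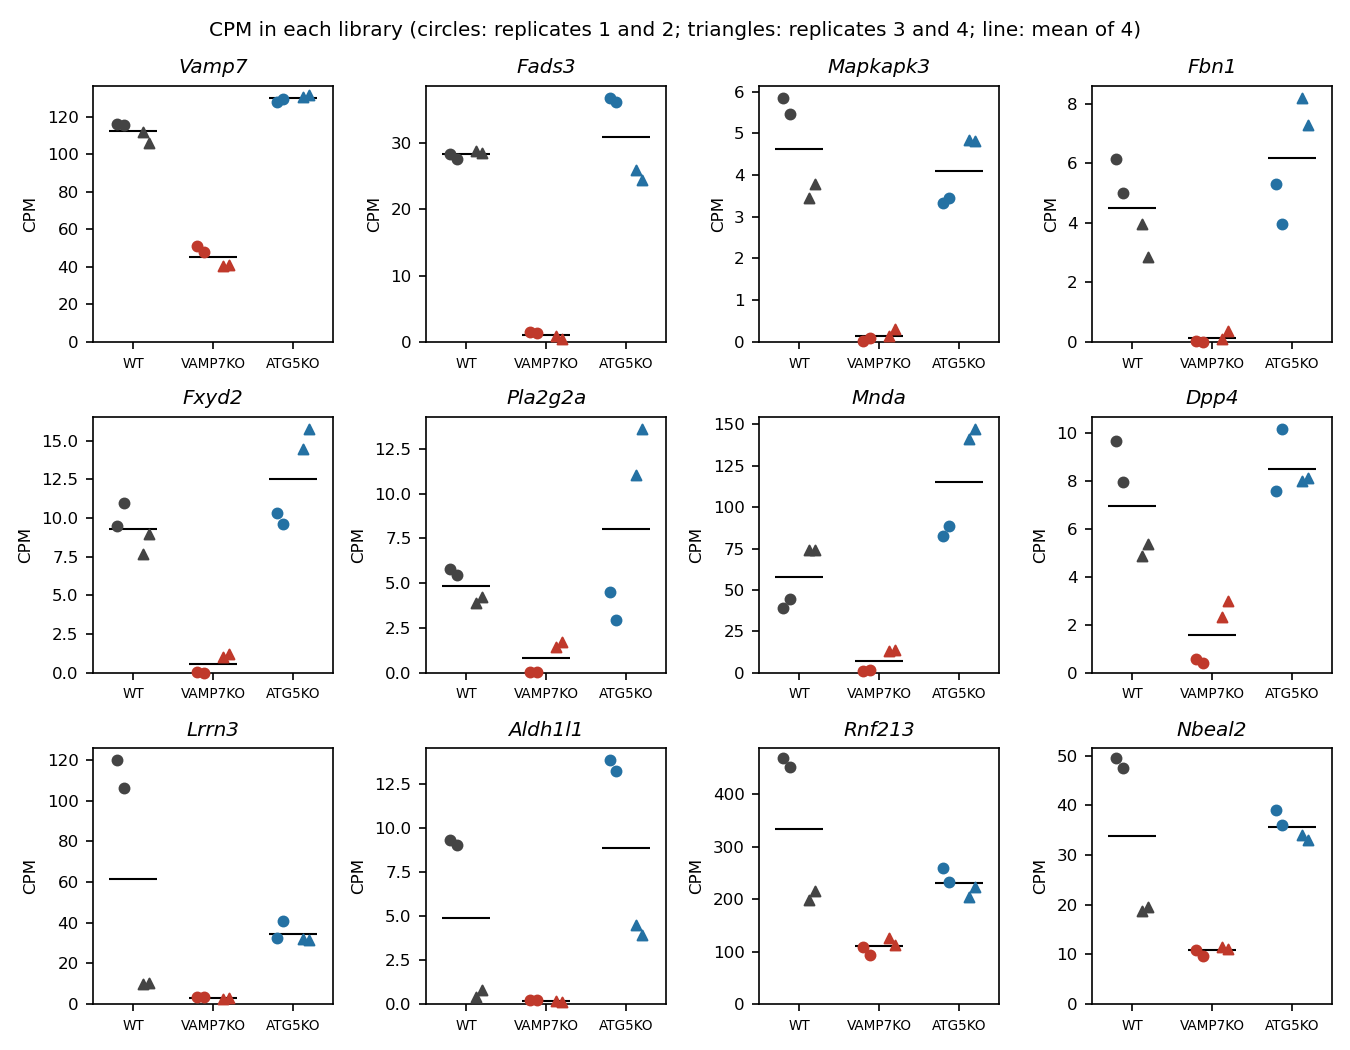
CPM of 12 of the 49 genes in each WT, VAMP7KO and ATG5KO library, from 0 on a linear axis, with circles for replicates 1 and 2, triangles for replicates 3 and 4 and a line at the mean of 4. All VAMP7KO points lie below all others in each panel, and WT replicates 3 and 4 of Lrrn3 and Aldh1l1 sit far below replicates 1 and 2.

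The rule compared genotypes and did not use the replicate number, but both were read from the same 12 libraries. In a model with genotype, 6 of the 49 genes differed between the 4 numbers (edgeR's quasi-likelihood test, adjusted p under 0.05), against 47.4% of all genes tested. Between replicates 3 and 4 and replicates 1 and 2, 4 genes were higher (against 28.8% of all genes) and 9 lower (against 31.4%), together 26.5% of the set against 60.2% of all genes. The balance of the 2 directions turned with single WT libraries: 7 genes were higher and 5 lower without WT replicate 3, 6 and 5 without WT replicate 2, and 6 and 6 without WT replicate 1 or 4. DESeq2's Wald test called 7 higher and 8 lower. The log2 change was positive in Gna15 (1.72, standard error 0.176) and Lypd3 (1.43, standard error 0.246) and negative in Aldh1l1 (-2.42, standard error 0.407) and ENSRNOG00000068440 (-1.84, standard error 0.308). The rule asks for separation in all 12 libraries, which bounds the spread within a genotype, so these shares are not independent of the choice and are given as a description.

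Whether the VAMP7KO difference had the same size in both sets was read from the interaction of VAMP7KO with the set. It comes from the same WT and VAMP7KO values that the rule bounds, so the counts below describe the chosen genes and are no independent test of them. At an adjusted p under 0.05 from edgeR's quasi-likelihood test, the interaction was called in 27 of the 49 genes (55.1%), against 16.5% of all genes tested. In 25 genes VAMP7KO was closer to WT in replicates 3 and 4 (against 8.97% of all genes in this direction), and in 2, Fads3 and Vamp7, it was closer in replicates 1 and 2 (against 7.5%). Among the 1619 genes lower in VAMP7KO than in WT by the same test, the interaction was called in 17.7% in the first direction and in 2.1% in the second. The median level in VAMP7KO was 9.85% of WT in replicates 1 and 2 and 24.4% in replicates 3 and 4, and it was smaller in the former for 40 of the 49 genes. The smallest p-values were those of Mnda (log2 interaction 2.34, standard error 0.179), Lrrn3 (2.89, standard error 0.225), Rnf213 (1.29, standard error 0.118) and Nbeal2 (1.38, standard error 0.136). Mnda stood at 3.37% of WT in replicates 1 and 2 and at 18% in 3 and 4, Lrrn3 at 3.06% and 24.4%, Rnf213 at 22% and 57.6%, and Nbeal2 at 21.1% and 59.1%. For Fads3 the interaction was -1.18 (standard error 0.279) and for Vamp7 -0.30 (standard error 0.0959). Without VAMP7KO replicate 4, the interaction was called in 16 genes in the first direction and in 0 in the second, and without VAMP7KO replicate 3 or any 1 WT library in 1 gene in the second.

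The smaller difference in replicates 3 and 4 took more than 1 form. Of the 25 genes, 14 had both WT libraries of replicates 3 and 4 below both of replicates 1 and 2 and both VAMP7KO libraries above, as in Pla2g2a, Fxyd2, Tns4 and Dpp4. In 9 the WT level was lower and the VAMP7KO level was not higher, as in Lrrn3, Aldh1l1, Ksr2 and Xpnpep1, and in 2, Mnda and Card14, VAMP7KO was higher and WT was not lower. Over all 49 genes WT was lower in replicates 3 and 4 without overlap in 40 (49.6% of genes with a mean WT level of at least 1 CPM) and higher in 8 (35.3%). VAMP7KO was higher in replicates 3 and 4 in 23 (39% of such genes) and lower in 7 (41.1%). Dpp4, for example, stood at 5.45% of WT in replicates 1 and 2 and at 51.9% in 3 and 4, and Pla2g2a at 0.981% and 38.7%.

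**Figure D4:**
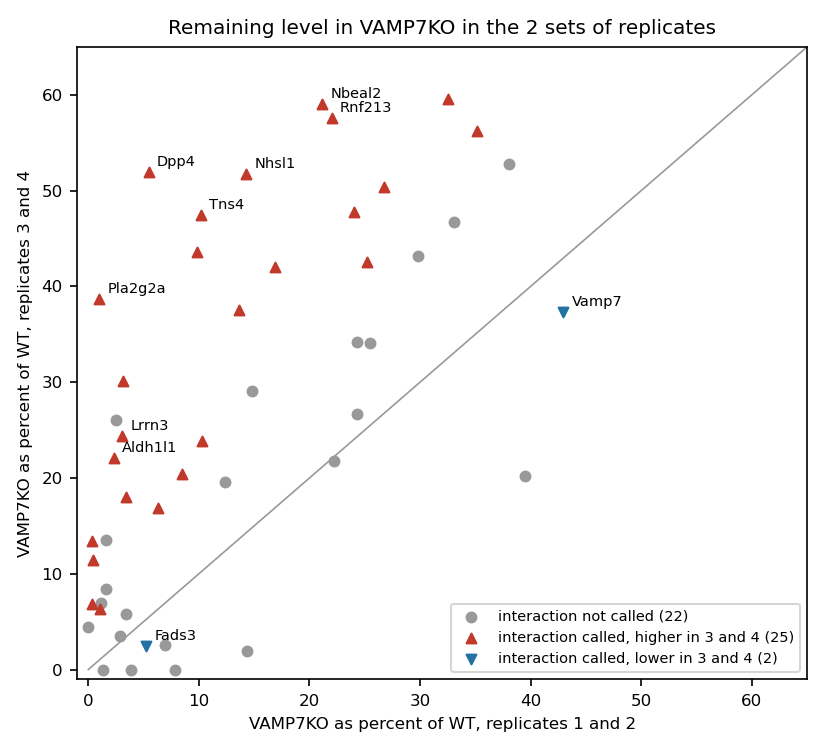
VAMP7KO level as percent of WT in replicates 3 and 4 (vertical) against replicates 1 and 2 (horizontal) for the 49 genes, with the line of equal values and colors for the interaction of VAMP7KO and set. Most points lie above the line, and Fads3 and Vamp7 are the 2 genes called below it.

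Libraries that took no part in a choice were used to see whether genes chosen in this way stay low. The rule was applied to 3 of the 4 replicate numbers at a time, and the genes it took were read in the number left out, where the VAMP7KO value had to be under 0.667 of the lower of the WT and ATG5KO values. All 52 genes chosen without replicate 1 kept to it in replicate 1, as did 50 of 51 without replicate 2, 54 of 60 without replicate 3 and 58 of 63 without replicate 4. In sum 214 of 226 (94.7%) kept to it, against 4.67% of all genes with a mean WT level of at least 1 CPM. A gene could be chosen more than once, so the 226 are not separate genes. Of those chosen without replicates 1, 2, 3 and 4, 42, 43, 46 and 48 were among the 49 genes. The 49 genes meet the limit in every library by the rule, so the shares kept are no check of them. The dishes left out are of the same lines as those used, so this concerns the spread between dishes and not other knockout lines. A number of the same set always took part in the choice, and deviations correlated at 0.575 to 0.753 between such libraries. The libraries left out are therefore not independent of those used. The 4.67% is taken over all genes and not over genes low in this line.

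ATG5KO was held near WT by the rule, and within that window its level varied. The ratio of the ATG5KO to the WT mean ran from 0.522 to 1.99 with a median of 1.22, and was above 1 in 34 genes and below 1 in 15. Every ATG5KO library was above every WT library in 6 genes (12.7% of genes with a mean WT level of at least 1 CPM), Mnda, Vamp7, Nhsl1 and Ksr2 among them. Every ATG5KO library was below every WT library in 3 (14.7%), Kcnab2, Plag1 and Traf1. In the other 40 genes the ATG5KO and WT libraries overlapped. The ratio was highest in Mnda (1.99) and lowest in Lypd3 (0.522).

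Of the 49 genes, 19 belong to pathway or marker lists written with earlier results of these data known, and the other genes of those lists were read in the comparison of VAMP7KO with WT. Only genes that the study had listed as changed on these libraries could be named, so the counts are not independent evidence of a direction. Over all lists, 134 of 202 other genes were lower in VAMP7KO (edgeR's quasi-likelihood test, adjusted p under 0.05), 24 higher and 44 not called, while 12.3% of all genes tested were lower and 10.5% higher. Their median log2 fold change was -0.94, against 0.0037 over all genes tested. The values over all genes include genes that the study did not list as changed, so they are no like background for the listed genes. With no replicate block, 95 were called lower and 9 higher. Levels of these genes are given below as means ± SD of 4 libraries. The genes printed with values were picked after their values were seen, so their p-values describe them and are no independent test.

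The NF-κB list, with Traf1 and Card14 in the set, had 9 of 12 other genes lower, 1 higher (Tnfrsf1b) and 2 not called. Nfkbia, the inhibitor that NF-κB itself induces, had 94.9 ± 29.1 CPM in WT and 49 ± 1.53 CPM in VAMP7KO (log2 fold change -0.84, adjusted p = 0.00201), and Birc3, an inhibitor of apoptosis that binds TRAF proteins, 15.2 ± 3.05 CPM in WT and 3.85 ± 0.257 CPM in VAMP7KO (log2 fold change -1.91, adjusted p = 1.77e-05). In ATG5KO, Birc3 had 6.19 ± 0.789 CPM and Nfkbia 83.7 ± 16.1 CPM. The list of toll-like receptor sensing and antimicrobial secretion, with Pla2g2a and Fcna in the set, had 7 of 13 lower, 1 higher (Tlr1) and 5 not called (4 lower and 0 higher with no replicate block). Lbp, which carries bacterial lipopolysaccharide, had 4.69 ± 0.293 CPM in WT and 0.966 ± 0.366 CPM in VAMP7KO (log2 fold change -2.34, adjusted p = 0.0051). Cytokines and chemokines, with the receptor gene Il20rb in the set, had 4 of 9 lower and 5 not called, Il6 with 8.37 ± 0.755 CPM in WT and 4.64 ± 0.613 CPM in VAMP7KO (log2 fold change -0.80, adjusted p = 0.00408) among the former. Lbp had 4.57 ± 3.49 CPM in ATG5KO, and Il6, lower in that line as well, had 3.4 ± 0.874 CPM.

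The list of kinases and phosphatases, with Prkcz, Camkk1, Rps6ka1, Mapkapk3 and Ksr2 in the set, had 16 of 21 other genes lower, 2 higher and 3 not called. Rps6ka2, a second ribosomal S6 kinase, had 33.8 ± 2.72 CPM in WT and 11.8 ± 4.55 CPM in VAMP7KO (log2 fold change -1.56, adjusted p = 0.000493), whereas Ksr1, the paralog of Ksr2, had 2.48 ± 0.536 CPM in WT and 4.14 ± 0.777 CPM in VAMP7KO (log2 fold change 0.79, adjusted p = 0.0118). Rps6ka1 and Rps6ka2 were thus both lower in VAMP7KO, and Ksr1 was higher where Ksr2 was lower. Rps6ka2 was also lower in ATG5KO, with 17.1 ± 7.0 CPM, and Ksr1 had 5.2 ± 0.826 CPM there. The cilia list, with Rfx4 and Dnah7, had 7 of 9 lower, 1 higher and 1 not called, and Rfx2, of the same family as Rfx4, had 20.6 ± 5.65 CPM in WT and 9.08 ± 1.38 CPM in VAMP7KO (log2 fold change -1.11, adjusted p = 0.000209). The list of SNAREs, late endosomes and lysosomes, with Vamp7, had 9 of 14 lower and 5 not called, and 4 lower with no replicate block. Mcoln3, a cation channel of endosomes and lysosomes, had 10.5 ± 2.01 CPM in WT and 1.6 ± 0.706 CPM in VAMP7KO (log2 fold change -2.7, adjusted p = 0.000112), and Rab7b, a small GTPase of late endosomes, 15.5 ± 1.61 CPM in WT and 7.67 ± 2.21 CPM in VAMP7KO (log2 fold change -0.99, adjusted p = 0.00125). Mcoln3 was as low in ATG5KO, with 1.31 ± 0.221 CPM, whereas Rab7b had 17.4 ± 0.455 CPM and Rfx2 25.4 ± 2.01 CPM there.

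The epithelial list, with Prkcz, Lypd3 and Tns4, had 14 of 15 other genes lower and 1 not called, and 8 lower with no replicate block. Ppl, the desmosomal plakin periplakin, had 309.9 ± 99.1 CPM in WT and 165 ± 75.1 CPM in VAMP7KO (log2 fold change -0.91, adjusted p = 0.00303), and Llgl2, a polarity protein, 11.5 ± 4.3 CPM in WT and 3.84 ± 1.62 CPM in VAMP7KO (log2 fold change -1.55, adjusted p = 0.000105). Llgl2 was also lower in ATG5KO, with 6.69 ± 2.09 CPM, and Ppl had 369 ± 45.6 CPM there. The kidney list, with Fxyd2 and Dpp4, had 7 of 12 lower and 5 not called, and 4 lower with no replicate block. Anpep, an aminopeptidase of the brush border, had 33 ± 29.2 CPM in WT, 5.68 ± 2.47 CPM in VAMP7KO (log2 fold change -2.0, adjusted p = 0.00219) and 24 ± 21.2 CPM in ATG5KO. GPI-anchored proteins, with Lypd3, had 10 of 13 lower, 1 higher and 2 not called. The fibroblast list, with Fbn1, was the list with more genes higher (6) than lower (3) among its 13 others, with 4 not called. With no replicate block it had 3 higher and 3 lower. Acta2, smooth muscle actin, had 9.36 ± 3.39 CPM in WT, 72 ± 31.2 CPM in VAMP7KO (log2 fold change 2.96, adjusted p = 0.000301) and 8.86 ± 2.43 CPM in ATG5KO. Summed over the 15 other fibroblast genes with an identifier, the level was 836 to 985 CPM in WT, 1031 to 1781 CPM in VAMP7KO and 1549 to 2295 CPM in ATG5KO. Much of this sum came from Pcolce alone, with a mean of 650 CPM in WT, 833 CPM in VAMP7KO and 1435 CPM in ATG5KO.

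Most leukocyte markers tested were lower in VAMP7KO, as the set was, but many were also lower in ATG5KO. Their part in the set was not tested. Mnda is on this list of 41 genes, 24 of which had an identifier. Of 22 other genes tested, 18 were lower in VAMP7KO, 1 was higher and 3 were not called. The summed level of the 23 other genes with an identifier was 71.2 to 133 CPM in WT, 18.1 to 22.1 CPM in VAMP7KO and 66.6 to 73 CPM in ATG5KO. Much of the ATG5KO sum came from Wdfy4, with a mean of 38.3 CPM there and 19.4 CPM in WT. Bin2, by contrast, had a mean of 2.29 CPM in ATG5KO and 16.1 CPM in WT, and RT1-Db1 3.55 and 16.2 CPM. Ptprc, which defines leukocytes, had 2.66 to 13.3 CPM in WT, 0 in all 4 VAMP7KO libraries and at most 0.0699 CPM in ATG5KO, where the rule held the set near WT. The T cell gene Cd3e had 0.127 to 0.538 CPM in WT, 0.456 to 0.924 CPM in VAMP7KO and 0.14 to 0.255 CPM in ATG5KO. In bulk RNA, fewer cells of a type and less RNA per cell cannot be told apart. Of 7 endothelial genes with an identifier 6 were lower and 1 higher, with a summed level of 76 to 85.6 CPM in WT, 38.4 to 61.3 CPM in VAMP7KO and 119.8 to 138 CPM in ATG5KO. Much of this sum came from Heg1, with means of 57.9, 30.2 and 95.1 CPM in WT, VAMP7KO and ATG5KO, and from Egfl7, with 11.4, 16.7 and 31.4 CPM. Flt1, by contrast, had means of 9.67, 2.7 and 1.25 CPM in WT, VAMP7KO and ATG5KO.

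The remaining lists held none of the 49 genes. Of the p53 targets, 5 of 6 were lower and 1 higher (3 and 0 with no replicate block), and of immediate early and growth factor response genes likewise 5 of 6 were lower and 1 higher. Calcium, TRP and purinergic channels had 12 of 21 lower, 2 higher and 7 not called. Notch, Wnt, Hippo and TGF-beta genes had 6 of 14 lower, 6 higher and 2 not called, and 2 lower and 1 higher with no replicate block.

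**Figure D5:**
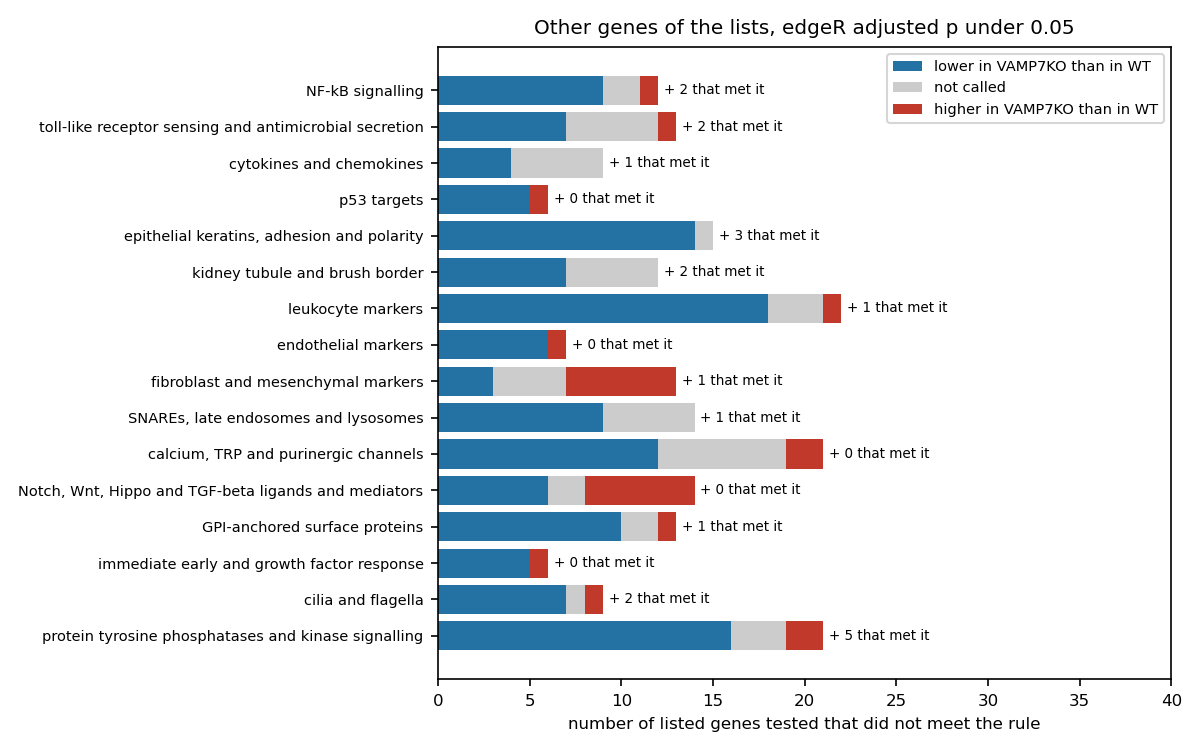
Number of other genes in each of the 16 lists that were lower in VAMP7KO than in WT (blue), not called (grey) or higher (red) by edgeR's quasi-likelihood test at an adjusted p under 0.05, with the number of genes of the set beside each bar. More genes are lower than higher in 14 of the 16 lists, while fibroblast markers have 6 higher against 3 lower and the Notch, Wnt, Hippo and TGF-beta list 6 of each (3 of each, and 1 higher against 2 lower, with no replicate block).

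The genes of the set were spread over the genome. The 42 with a symbol were matched to RefSeq genes of GRCr8, which was used for the order of genes alone, and lay on 14 chromosomes. The closest pair was Card14 and Rnf213, with 2 genes, Sgsh and Slc26a11, between them, and the next closest, Aldh1l1 and Grip2, had 11 genes between them. Slc26a11, a sulfate and chloride transporter named after its values were seen, had 34.2, 32.6, 23 and 21.3 CPM in WT, 8.48, 9.58, 7.43 and 6.65 CPM in VAMP7KO and 15.3, 14.3, 10.1 and 10.5 CPM in ATG5KO. It was lower in VAMP7KO by a log2 fold change of -1.72 ± 0.0899 (standard error) with an adjusted p of 2.59e-06 from edgeR, and in ATG5KO by -1.15 with an adjusted p of 7.56e-06. No values are given here for Sgsh, the other gene between the pair, and whether neighbouring genes changed together was not tested.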

How the data were processed

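The authors trimmed reads with cutadapt, used bowtie to discard rRNA reads, aligned the others with STAR to the mRatBN7.2 genome and ran htseq-count on Ensembl genes. They deposited read counts without normalization for 20842 genes in 12 libraries, 4 per genotype. A separator missing from the table's header was restored by position. Reads carried no molecular identifiers, so floors and bounds cover counting error only. The authors' own fold changes and p-values were not used.

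CPM were counts over the library total. Members of the set were chosen by the stated rule, and members, gene lists, the split into replicates 1 and 2 and replicates 3 and 4, and tests were chosen with earlier results of these data known. The role groups were made after the members were known. The text names Vamp7, the 12 named members with the widest gap, the 6 with the highest mean WT CPM, every member on a list, the 3 genes on either side of the limit and up to 4 members per test by smallest p, and gives the other named members by their range. List genes printed with values were picked after their values were seen.

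Tests used edgeR 4.0.16 (glmQLFit and glmQLFTest, limma 3.58.1, R 4.3.3) on the counts of the 13141 genes kept by filterByExpr, with TMM, all 12 libraries in 1 model and Benjamini-Hochberg adjustment over all genes tested. The replicate number was a block, in place of the batch effect that the authors adjusted for. Deviations from the genotype means correlated at 0.617 to 0.750 between libraries of equal number. Libraries of another number in the same set correlated as well (0.575 to 0.753), so the libraries went together by set, with no clear pairing by number within it. The interaction was fitted with the set in place of the number. Standard errors of log2 values were taken from the F statistic of their test. On simulated data with 200 genes changed by a log2 of 1 between VAMP7KO and WT among 13141, this test recovered 76.5% and called 10 of 12541 unchanged genes. Set differences and interactions were simulated in 200 genes each, whereas 60.2% and 16.5% of the genes tested were called for them in the data. The rates therefore hold for the simulated setting and were not measured for these libraries. Symbols came from the study's own gene tables, which name 1976 genes of the table, so Atg5 was not analysed here. Alternatives were DESeq2 1.42.0 (its size factors in edgeR and its Wald test), no filter, no replicate block, other limits of the rule and each library left out in turn. Python 3.11.15 with pandas 2.3.3 was used for the rest.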

Additional observations from a re-analysis of the deposited data

Results flagged for a closer look

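In 25 named genes of the set the size of the VAMP7KO difference was not the same in replicates 3 and 4 as in replicates 1 and 2 (edgeR's quasi-likelihood test of the interaction, adjusted p under 0.05 over all genes tested). The values are log2 differences of the VAMP7KO change between the sets, and a positive value means that VAMP7KO was closer to WT in replicates 3 and 4. Where VAMP7KO replicates 1 and 2 were at the floor, as in Pla2g2a, Fxyd2, Fbn1 and Mapkapk3, the fitted value depends on the prior count. The genes were chosen on the same libraries, so these calls are a description of them, and the cause of the differences was not tested.

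The highest values were 5.05 for Pla2g2a, 4.93 for Fxyd2 and 3.89 for Fbn1. They were followed by 3.24 for Fcna, 3.21 for Aldh1l1, 3.11 for Dpp4, 2.89 for Lrrn3, 2.44 for Mapkapk3, 2.34 for Mnda, 2.14 for Tns4 and 2.09 for Ksr2. Values between 1 and 2 were found for Nhsl1 (1.74), Nbeal2 (1.38), Card14 (1.35), Rps6ka1 (1.3), Rnf213 (1.29), Dnah7 (1.24), Cyfip2 (1.19) and Clstn3 (1.11). The remaining positive values were 0.90 for Xpnpep1, 0.81 for Il20rb, 0.66 for Camkk1 and 0.58 for Trim47. Fads3 and Vamp7 went the other way, at -1.18 and -0.30, so that VAMP7KO was farther from WT in replicates 3 and 4.

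A single library stood apart from the other 3 of its genotype, by the gap to its nearest neighbour over the range, in 7 of the 126 groups of 4 libraries looked at, where chance flags about 5% of groups. In VAMP7KO these were replicate 1 for Prkcz (0.033 CPM, 1 count against 0 in the other 3) and Depdc7 (0.429 CPM), and replicate 2 for Kcnab2 (0.221 CPM) and Trim6 (0.221 CPM). In ATG5KO they were replicate 2 for Lrrn3 (40.7 CPM) and Traf1 (8.8 CPM) and replicate 3 for Fcna (10.7 CPM). Each of these libraries kept to the rule with the others of its genotype.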

How the results depend on the processing

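The set numbered 48 genes under TMM or DESeq2 size factors, 30 with a limit of 0.5 in place of 0.667, 79 with a limit of 0.8, 27 with a mean WT level of at least 5 CPM, 59 with at least 0.5 CPM and 30 with an ATG5KO window of 0.67 to 1.5. Leaving out 1 library at a time gave 44 to 57 genes. With no replicate block the counts of genes called fell to 638 lower and 386 higher in VAMP7KO against WT (1619 and 1385 with it), 1651 and 1346 in VAMP7KO against ATG5KO (3106 and 2797), and 1478 and 1624 in ATG5KO against WT (2985 and 3096), and 9 genes of the lists were higher in place of 24. In the NF-κB, leukocyte, endothelial and cilia lists it left 0 genes higher in place of 1, and in the list of kinases and phosphatases 1 in place of 2. DESeq2's Wald test called 7 members higher in replicates 3 and 4 in place of 4, with 8 lower in place of 9. Of 672 refits of the log2 fold change of named members 664 moved by less than the spread between replicates and none changed sign. The rule had placed every VAMP7KO value of these genes below every other value, so their sign was fixed by the choice and is no test of it.

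Over the fits that left out 1 library, VAMP7KO against WT gave 1092 to 1661 genes lower and 831 to 1563 higher, with 831 without VAMP7KO replicate 1, 857 without VAMP7KO replicate 2 and 861 without WT replicate 1. VAMP7KO against ATG5KO gave 2605 to 3126 lower and 2301 to 2871 higher, and ATG5KO against WT 2432 to 3012 lower and 2554 to 3035 higher. The replicate number was called in 5 to 8 members. Replicates 3 and 4 were higher in 3 to 7 members (7 without WT replicate 3) and lower in 5 to 9 (5 without WT replicate 2 or 3), so that more were higher than lower without WT replicate 2 or 3 and as many without WT replicate 1 or 4. The interaction was higher in 16 to 25 members, 16 without VAMP7KO replicate 4, and lower in 0 to 3, where 0 were called without VAMP7KO replicate 4 and 1 without VAMP7KO replicate 3 or any WT library. The other genes of the lists gave 111 to 135 lower and 16 to 23 higher. Members of under 2 CPM in WT rest on few reads, and each knockout is known here from a single line.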
